A study of Mus musculus with 8 samples.

Results

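Genes with very long transcribed regions were followed in the left ventricles of mice labelled as lacking the adhesion receptor ADGRF5 in cardiac muscle cells. From a list of 37 such genes, 33 were selected on their measured level, a mean of at least 1 CPM (reads scaled to the library's total) over the 8 libraries, out of 55487 gene identifiers counted and 14695 tested. The list was drawn up with earlier results of these libraries known, so the values of its members describe them and are not independent evidence of a direction. In the GENCODE M21 annotation of GRCm38 the 37 genes span 342.1 kb (Supt3) to 2270.7 kb (Ptprd), so each is longer than 300 kb. The 4 members left out had mean levels of 0.954 CPM (Tenm4), 0.768 CPM (Fhit), 0.517 CPM (Grip1) and 0.249 CPM (Naaladl2), and the nearest members kept were Sox5 at 1.45 CPM and Astn2 at 1.90 CPM. Naaladl2 also fell outside the filter of the test, so 36 of the 37 have a fitted value.

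All animals were C57BL/6 mice of 12 weeks. The 4 control animals, titled NLC, carry the genotype label wild-type, and the 4 knockout animals, titled CM-ADGRF5-KO and called KO here, are labelled GPR116-/- in myocytes only, GPR116 being another name of ADGRF5. Males are replicates 1 and 2 in both groups, females replicates 3 and 4. The labels name no Cre line or promoter and describe no treatment.

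A gene of this kind is mostly intron. RNA polymerase II needs many minutes to hours to cross it, the long introns must be spliced out of the growing transcript, and topoisomerases relieve the twist that builds up ahead of and behind the polymerase. Several of the listed genes, among them Fhit, Wwox, Macrod2, Immp2l and Dpyd, have human counterparts in chromosome regions known as fragile sites, where late replication meets transcription. Many long genes are best known from neurons, but cardiac muscle also transcribes giant genes such as Dmd, which encodes dystrophin.

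The gap between transcribed span and mature message can be seen at single exon junctions. The lines below show, for the 6 members whose knockout libraries all lay below all controls and for Wwox, whose groups overlapped, the spliced coding sequence across the longest intron inside the coding region of the longest annotated coding transcript. Each has the last 15 bases of the upstream exon in lower case and the first 15 bases of the downstream exon in capitals, 5′ to 3′ in the direction of transcription, with the GRCm38 position of the intron that is removed between them.
Astn2, chr4:66266381-66403882, minus strand: ccttcttcaccctggAGATGTCTGGCACAG
Dpyd, chr3:119314932-119412133, plus strand: gagctcatgggacagAAACTGCCCAGCTTT
Immp2l, chr12:41110944-41628763, plus strand: cattgtgtcattggtGTCTCCTAAAAACCC
Magi2, chr5:19227590-19678652, plus strand: agtgtgtcaagcaagGAGGAATTGTTGATA
Rbfox1, chr16:7070086-7224310, plus strand: ccgggactgatgcagGGTAATCAGGAAGCA
Pard3b, chr1:61768050-62010306, plus strand: gaagacaaagataagCTGATTGCTGTGTTT
Wwox, chr8:114712252-115351637, plus strand: ttcaccaagtccatgCAACAGGGAGCTGCT
Between lower case and capitals lie 517.8 kb of intron in Immp2l, whose protein in this transcript has only 175 residues, and 451.1 kb in Magi2. In Wwox 639.4 kb are removed at this junction, the longest of the 7, while in Dpyd the longest coding intron takes 97.2 kb. The difference between genotypes was largest in Astn2 (137.5 kb) and smallest in Wwox. The 7 genes were picked by how their groups differed, so their order cannot show whether that difference goes with intron length. The intron shown is also not always the longest of the gene. In Rbfox1 it takes 154.2 kb, while the longest intron of its transcript with the longest span takes 415.1 kb.

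The libraries held 25.33 to 39.62 M reads assigned to genes, with KO replicate 1 the deepest, and 3 reads correspond to 0.0757 to 0.118 CPM. The targeted gene Adgrf5 had 233 ± 17.4 CPM in NLC and 224 ± 15.7 CPM in KO ventricles (SD, n = 4 each), a log2 ratio of -0.05 with an edgeR adjusted p of 0.782. Endothelial cells also transcribe Adgrf5 and counts cover the whole gene, so this level does not check the genotype labels and all directions rest on them. Summed cardiomyocyte markers stood at 79400 to 89300 CPM in controls and 77400 to 93400 CPM in KO, while 5 atrial markers summed to 6000 CPM in NLC replicate 4 and to 359 to 1430 CPM in the other libraries. Levels below are CPM on library sizes scaled by the TMM method, and changes are log2 of KO over NLC from a fit of all 14695 genes with sex as a term. In that fit 3 of the 8 cardiomyocyte markers were below 0 (51% of all genes). At an unadjusted edgeR p under 0.05, Atp2a2 was lower (-0.27) and Tnnt2 higher (0.18), where 6.18% and 5.77% of all genes were. In males 3 of the 8 were lower and 0 higher at this limit (8.45% and 9.01% of all genes).

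Most of the long genes were lower in KO than in NLC ventricles, and 6 of them stood lowest. Of the 33 kept members, 26 had a log2 fold change below 0, where 51% of all genes tested did, and their median was -0.128 against -0.005 for all genes. Over the 36 members with a fitted value the count below 0 was also 26 and the median -0.113. In 6 members (Astn2, Dpyd, Immp2l, Magi2, Rbfox1 and Pard3b) all 4 KO libraries lay below all 4 controls, where 3.03% of all genes did, and in 0 members all KO libraries lay above, where 3.22% did. An unadjusted p under 0.05 with a lower level was found for 9 members (6.18% of all genes) and with a higher level for 0 members (5.77% of all genes). After Benjamini-Hochberg adjustment over all genes, edgeR's quasi-likelihood test called 0 of the 33 (0.102% of all genes). DESeq2 called 6 of them, all lower, which are the same 6 named above (1.02% of all genes called in either direction, 0.429% lower). edgeR without a filter on low counts also called 6 (2.22% of all genes). In whole ventricle, fewer cells of a type and less RNA per cell cannot be told apart.

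**Figure D1:**
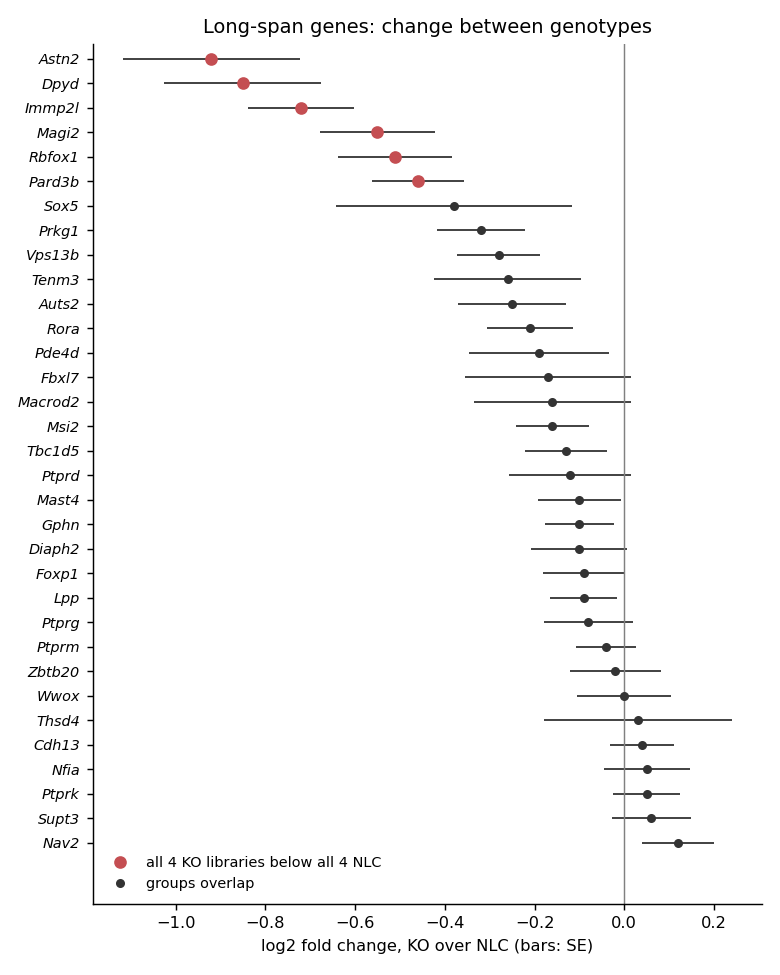
Log2 fold change of KO over NLC for the 33 kept genes (points) with its standard error (bars), ordered from the lowest to the highest. Red points mark the 6 genes in which all 4 KO libraries lay below all 4 NLC libraries, from Astn2 at -0.92 to Pard3b at -0.46, and the other 27 genes lie between -0.38 and 0.12.

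Astn2 encodes astrotactin 2, a membrane protein first studied in neurons, and it showed the lowest ratio. It stood at 2.44, 1.96, 2.70 and 2.84 CPM in NLC replicates 1 to 4 and at 1.59, 1.14, 1.26 and 1.20 CPM in KO replicates 1 to 4. The groups did not overlap, and the highest KO library, male replicate 1, stayed under the lowest control, male replicate 2. The means were 2.48 ± 0.387 and 1.30 ± 0.199 CPM (SD, n = 4 each), a log2 fold change of -0.92 (SE 0.197, edgeR adjusted p = 0.179, DESeq2 adjusted p = 0.0312). Astn2 lies on the minus strand of chr4:65380803-66404611, and Trim32 sits inside it on the opposite strand.

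Dpyd encodes dihydropyrimidine dehydrogenase, which carries out the first and rate-limiting step in the breakdown of uracil and thymine. Its levels were 7.83, 9.06, 6.75 and 8.09 CPM in the NLC libraries and 3.44, 4.32, 4.00 and 5.97 CPM in the KO libraries, in the order of the replicate numbers. The KO library nearest to the controls was female replicate 4, which still lay below the lowest control, and the 2 male KO libraries lay at 3.44 and 4.32 CPM. Means of 7.93 ± 0.949 and 4.43 ± 1.09 CPM gave a log2 fold change of -0.85 (SE 0.175, edgeR adjusted p = 0.164, DESeq2 adjusted p = 0.00208). Dpyd, on the plus strand of chr3:118562129-119432924, has no annotated gene on the opposite strand.

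Immp2l encodes a catalytic subunit of the peptidase of the mitochondrial inner membrane, which trims imported proteins. It measured 12.33, 10.81, 10.39 and 9.68 CPM in NLC replicates 1 to 4 and 6.85, 5.95, 5.86 and 7.52 CPM in KO replicates 1 to 4. Each KO library was under each control, with the gap between 7.52 and 9.68 CPM. From 10.8 ± 1.12 to 6.54 ± 0.786 CPM the log2 fold change was -0.72 (SE 0.118), and its adjusted p was the lowest of the members by both tools, 0.0704 by edgeR and 0.000188 by DESeq2. A per-library correction for exonic length brought the edgeR adjusted p to 0.0439, and leaving out NLC replicate 2 and KO replicate 1 brought it to 0.547. Immp2l was called in 4 of 21 alternative fits. Immp2l (chr12:41024090-41955588, plus strand) holds 8 annotated genes on the other strand, among them Lrrn3.

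Magi2 encodes a scaffold with several PDZ domains that gathers proteins at cell junctions and synapses. NLC replicates 1 to 4 had 8.92, 7.75, 6.81 and 6.57 CPM and KO replicates 1 to 4 had 5.53, 4.77, 4.39 and 5.67 CPM. The control males lay above the control females, and the highest KO library, 5.67 CPM, lay below both. The log2 fold change from 7.51 ± 1.07 to 5.09 ± 0.612 CPM was -0.55 (SE 0.129, edgeR adjusted p = 0.197, DESeq2 adjusted p = 0.0363).

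Rbfox1 encodes a splicing factor of neurons and striated muscle that binds beside alternative exons. It was measured at 23.05, 32.55, 22.81 and 27.11 CPM in the controls and at 16.77, 18.78, 17.27 and 21.08 CPM in KO. NLC replicate 2 was the highest library and the highest KO library, 21.08 CPM, lay under the lowest control, 22.81 CPM. The log2 fold change from 26.4 ± 4.56 to 18.5 ± 1.94 CPM was -0.51 (SE 0.127, edgeR adjusted p = 0.213, DESeq2 adjusted p = 0.0223). At 5.10 CPM per exonic kb it was also among the more abundant members, and no gene is annotated opposite it on chr16:5885355-7411526.

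Pard3b encodes a relative of the polarity protein PAR3 found at tight junctions. Controls stood at 13.98, 17.13, 15.21 and 15.08 CPM and KO libraries at 10.08, 9.82, 12.78 and 12.29 CPM. The male KO libraries lay below the female KO libraries, and all 4 lay below the lowest control. Means of 15.4 ± 1.31 and 11.2 ± 1.51 CPM gave a log2 fold change of -0.46 (SE 0.103, edgeR adjusted p = 0.185, DESeq2 adjusted p = 0.0296).

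**Figure D2:**
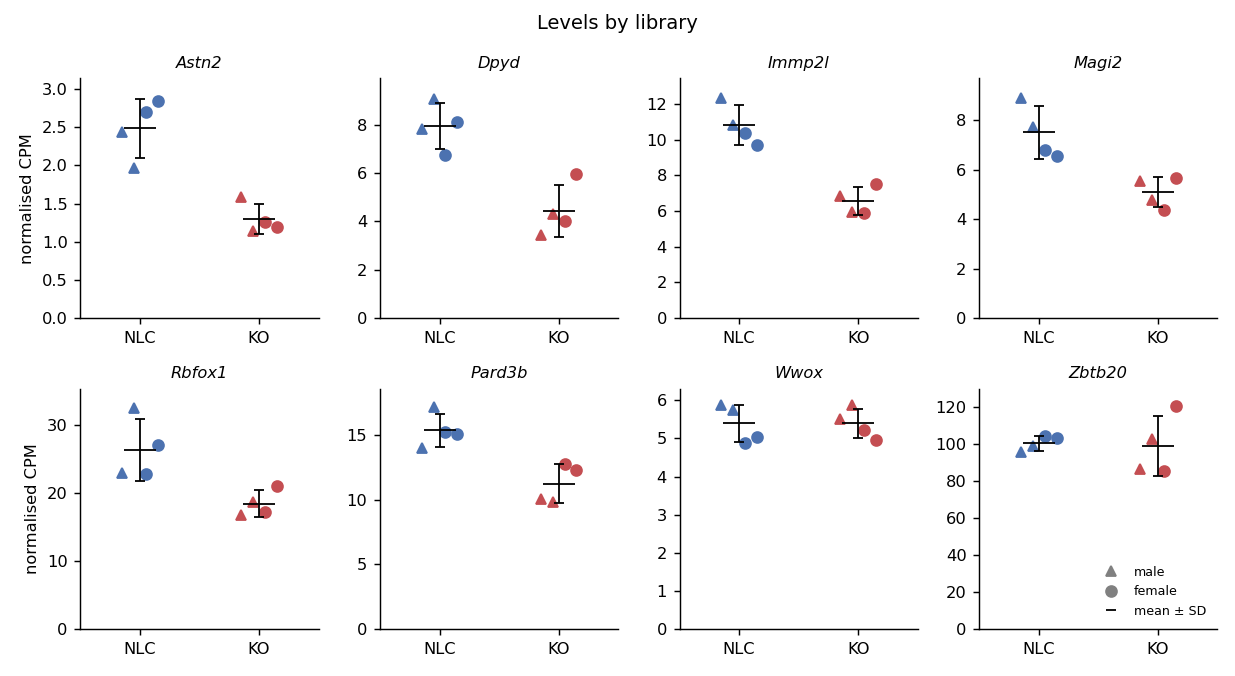
Normalised level (CPM, linear axes from 0) of 8 genes in each library, with triangles for males, circles for females and a black cross for the mean ± SD of 4 libraries. Astn2, Dpyd, Immp2l, Magi2, Rbfox1 and Pard3b show KO libraries that all lie below the controls, while Wwox and Zbtb20 overlap.

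The remaining members are given by what they encode. Among fragile-site genes and enzymes, 4 of 6 were kept, with a median of -0.442 carried by Dpyd and Immp2l. Macrod2, a hydrolase that removes ADP-ribose, had a log2 fold change of -0.16. Wwox, an oxidoreductase with WW domains and a classic fragile-site gene, stood at 5.88, 5.75, 4.89 and 5.05 CPM in NLC and at 5.50, 5.88, 5.23 and 4.96 CPM in KO. The ranges of Wwox coincided, and its log2 fold change of 0.00 (SE 0.105) is the value nearest 0 in the list. Fhit, below the level limit, had 0.62 to 0.97 CPM in controls and 0.56 to 0.93 CPM in KO.

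The 4 receptor tyrosine phosphatases, which remove phosphate from tyrosines and sense neighbouring cells or matrix, had values of -0.12 (Ptprd), -0.08 (Ptprg), -0.04 (Ptprm) and 0.05 (Ptprk). Ptprk, a receptor that binds its own kind on the next cell, measured 26.84, 26.76, 25.81 and 28.29 CPM in NLC and 25.02, 27.67, 29.00 and 30.21 CPM in KO. Its lowest and its highest library were both KO. Ptprm, at 11.6 CPM per exonic kb, was the second most abundant member per length. Of these 4, 0 had an unadjusted p under 0.05 (6.18% of all genes lower and 5.77% higher).

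In the adhesion and matrix group, Tenm3, a teneurin that binds latrophilins across the cell gap, had a log2 fold change of -0.26 that shrank to -0.10 without NLC replicate 4. Cdh13, which encodes T-cadherin, a membrane-anchored receptor for adiponectin, was the most abundant member at 16.8 CPM per exonic kb. It stood at 178.43 to 193.64 CPM in controls and 180.39 to 208.06 CPM in KO (log2 fold change 0.04). Thsd4, which takes part in the assembly of fibrillin microfibrils, had a value of 0.03, with 4.72 to 10.17 CPM in controls and 5.26 to 8.67 CPM in KO. The highest Tenm3 and Thsd4 levels, 6.92 and 10.17 CPM, were both in NLC replicate 4, the library with the summed atrial markers of 6000 CPM, whose part in these values was not tested beyond leaving it out. Tenm4, left out for its level, had 0.66 to 1.25 CPM in controls and 0.85 to 1.20 CPM in KO.

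Of the junction and scaffold genes kept, all 4 were below 0, with Magi2 and Pard3b described above. Gphn, gephyrin, anchors inhibitory receptors and also helps to make the molybdenum cofactor. Its log2 fold change was -0.10. Lpp, a LIM protein of focal adhesions, had a value of -0.09. The groups overlapped in both, and Grip1, a PDZ scaffold below the level limit, ranged from 0.30 to 0.77 CPM.

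Enzymes of cyclic nucleotide and kinase signalling were all below 0. Prkg1 encodes the cGMP-dependent protein kinase that acts downstream of nitric oxide and natriuretic peptides. Its levels were 11.96, 12.60, 13.66 and 16.67 CPM in NLC and 8.65, 10.31, 13.10 and 12.10 CPM in KO. The male KO libraries lay below all controls and the female KO libraries overlapped them. The log2 fold change was -0.32 (SE 0.0978, unadjusted p = 0.00808, edgeR adjusted p = 0.304). Pde4d, a phosphodiesterase that degrades cAMP near calcium channels and β-adrenergic receptors, had -0.19, and Mast4, a kinase associated with microtubules, had -0.10.

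The 9 regulators of transcription and RNA had a median of -0.158 and ranged from Rbfox1 at -0.51 to Supt3 at 0.06. Sox5, a transcription factor of the SRY-box family, stood at 1.20, 1.43, 1.32 and 2.63 CPM in NLC and 1.27, 1.28, 1.26 and 1.16 CPM in KO. Only NLC replicate 4 was apart, and the Sox5 value moved from -0.38 (SE 0.263) to -0.07 when that library was left out. Auts2, a gene tied to brain development whose product works with Polycomb proteins, had a log2 fold change of -0.25. Rora, a nuclear receptor of the circadian clock, had -0.21 (unadjusted p = 0.0487, edgeR adjusted p = 0.416). Msi2, an RNA-binding Musashi protein, had -0.16 and the forkhead factor Foxp1 -0.09.

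Zbtb20, a zinc finger repressor, measured 95.62, 98.72, 104.24 and 103.05 CPM in NLC and 86.75, 102.89, 85.56 and 120.51 CPM in KO. The KO libraries spread to both sides of the controls, and the log2 fold change was -0.02 (SE 0.102). Nfia, a transcription factor, had 32.23, 33.61, 28.91 and 32.51 CPM in NLC and 32.03, 35.45, 27.56 and 36.64 CPM in KO. Its groups overlapped, with a log2 fold change of 0.05. Supt3, a subunit of the SAGA coactivator, lay at 12.86, 12.44, 12.72 and 10.72 CPM in NLC and 14.20, 12.52, 11.73 and 12.25 CPM in KO, overlapping as well (0.06).

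In the trafficking, cytoskeleton and ubiquitin group, Vps13b, a lipid transfer protein of the Golgi, had the lowest value at -0.28 (unadjusted p = 0.0119, edgeR adjusted p = 0.334). Its KO libraries ran from 15.37 to 18.60 CPM and its controls from 18.25 to 21.99 CPM, so that 1 library of each group crossed. Fbxl7, a substrate receptor of a ubiquitin ligase, had -0.17, Tbc1d5, which switches off Rab7, had -0.13, and the formin Diaph2, the member on the X chromosome, had -0.10. Nav2, a cytoskeletal navigator protein, was the highest member. It measured 40.11, 37.08, 35.73 and 40.67 CPM in NLC and 43.16, 41.78, 37.15 and 44.87 CPM in KO, with 3 KO libraries above all controls. This gave a log2 fold change of 0.12 (SE 0.0805), with an edgeR adjusted p of 0.535.

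Gene properties can be set beside these values, of which genomic span and mean CPM also served to choose the members, while exonic length, intron length and promoter sequence did not. Among the 33, the log2 fold change had a Spearman correlation of -0.49 with genomic span, 0.24 with exonic length, -0.20 with the longest intron, 0.49 with the exonic percentage of the span and 0.52 with mean CPM. These are descriptions over genes that share the same 8 libraries. The 10 members of at least 1000 kb had a median of -0.286, with 5 (50%) lower at an unadjusted p under 0.05. The 23 shorter ones had a median of -0.098, with 4 (17.4%). At this limit 6.18% of all genes were lower. The share was 35.5% of all tested genes of at least 1000 kb and 15% of those of 300 to 1000 kb, members included. Yet Ptprd (2270.7 kb), Macrod2 (1997.7 kb) and Cdh13 (1041.2 kb) are among the longest and had values of -0.12, -0.16 and 0.04. The 8 members with under 10 kb of exon had a median of -0.342 and the 25 others -0.121. Genes other than Rbfox1, Dpyd, Foxp1 and Tbc1d5 have annotated genes on the opposite strand, and since the strand setting of the counting is not given in the sources used here, reads of those genes may be mixed in.

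The upstream regions of the members were read from the RefSeq promoter table of GRCm38.p6, which held 41 promoters of 28 of the kept members. Immp2l and Dpyd, both lower in KO, and Supt3, which was not, are shown with the 250 bases before the annotated start, with matches to the GC box (GGGCGG or CCGCCC) and the CCAAT box (CCAAT or ATTGG) in capitals.
Immp2l, chr12:41023840-41024089, plus strand: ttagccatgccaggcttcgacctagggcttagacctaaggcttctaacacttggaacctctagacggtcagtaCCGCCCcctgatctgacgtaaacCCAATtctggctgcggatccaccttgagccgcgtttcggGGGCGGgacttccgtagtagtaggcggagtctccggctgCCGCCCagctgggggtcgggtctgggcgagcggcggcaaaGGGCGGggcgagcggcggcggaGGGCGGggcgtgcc
Dpyd, chr3:118561930-118562179, plus strand: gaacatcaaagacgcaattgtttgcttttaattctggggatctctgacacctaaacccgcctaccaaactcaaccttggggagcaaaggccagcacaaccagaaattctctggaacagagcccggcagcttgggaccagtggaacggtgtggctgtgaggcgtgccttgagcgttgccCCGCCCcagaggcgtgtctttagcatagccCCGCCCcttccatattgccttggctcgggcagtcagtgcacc
Supt3, chr17:44776916-44777165, plus strand: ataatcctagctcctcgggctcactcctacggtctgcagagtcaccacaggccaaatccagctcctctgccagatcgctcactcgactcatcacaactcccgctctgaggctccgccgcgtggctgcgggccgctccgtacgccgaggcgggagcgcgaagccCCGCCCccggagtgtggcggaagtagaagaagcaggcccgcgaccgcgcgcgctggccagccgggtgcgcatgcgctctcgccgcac
Immp2l had 5 GC boxes in this window, Dpyd 2 and Supt3 1. Of the other low members, Astn2 had 2, Magi2 0 and 1 in its windows, Pard3b 0 and Rbfox1 0 in each. Of the other high members, Ptprk had 1, Nav2 1 and 0 in its windows and Nfia 0. The motif was thus both present and absent at each end of the list. Of the 41 member promoters 56.1% held a GC box, against 32.7% of 32851 promoters in the table, and 36.6% held a CCAAT box, against 33.8%. TATAAA or TTTATA was found in 0 of the 41 and in 12.4% of all. Their median GC content was 61.2% and that of all promoters 52.4%. The 41 include overlapping windows of Msi2 and of Macrod2, each counted. Members were chosen on their level while the full table was not, so these shares compare unlike sets. A match is a string of letters and not a site.

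The difference of the members was read within each sex, which the labels give. In males 28 of 33 members had a value below 0 (48.6% of all genes), with a median of -0.205. An unadjusted p under 0.05 was reached by 13 lower members (8.45% of all genes) and 0 higher members (9.01% of all genes). In females 22 of 33 were below 0 (52.7% of all genes), with a median of -0.06. There 4 lower members (Astn2, Dpyd, Immp2l and Magi2) had an unadjusted p under 0.05 (2.99% of all genes) and 0 higher members did (2.14% of all genes). edgeR called 0 members in males (0.0408% of all genes) and 0 in females (0% of all genes). DESeq2 called 4 members in males, Dpyd, Immp2l, Pard3b and Rbfox1 (2.14% of all genes). It gave no adjusted p in males for Astn2, Macrod2 and Sox5, so these could not be called. The lower male median was not particular to the list. The 285 tested genes outside it with at least 300 kb and 1 CPM had medians of -0.189 in males and -0.072 in females. In 187 of these 285 the male value lay below the female value.

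The 6 lowest members were below 0 in both sexes. This was fixed in advance, since all 4 KO libraries lay below all 4 controls in each of them, so only the sizes are informative. Dpyd had a log2 fold change of -1.13 in males and -0.57 in females, and Immp2l of -0.85 and -0.59. Astn2 went the other way, with -0.68 in males and -1.16 in females. Magi2 (-0.69 and -0.41), Rbfox1 (-0.65 and -0.38) and Pard3b (-0.64 and -0.27) each had the lower value in males. Among the other members the widest gaps were in Sox5 (-0.04 in males and -0.70 in females), Pde4d (-0.45 and 0.06) and Fbxl7 (0.07 and -0.42). The difference between the sexes, tested as an interaction, was below 0 (lower in males) in 25 of the 33 members, as in 46.9% of all genes. It reached an unadjusted p under 0.05 in 0 of the 33 members in either direction (3.16% and 4.29% of all genes), and edgeR called 0 after adjustment (0% of all genes). Pard3b came nearest, with an interaction p of 0.0626 (edgeR adjusted p = 0.648). In the numbering of the library names, male KO libraries are 1 and 2 and male controls 3 and 4, so library order and genotype cannot be told apart in males. In females the controls, at 6 and 7, lie between the KO libraries, at 5 and 8.

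**Figure D3:**
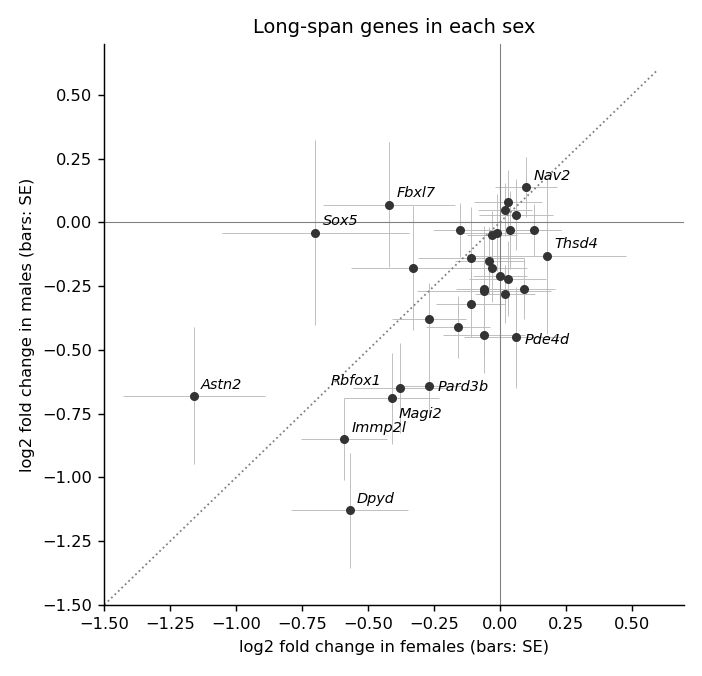
Log2 fold change of KO over NLC in females (horizontal) and in males (vertical) for the 33 kept genes, with standard errors as grey bars and a dotted line where both are equal. Astn2, Dpyd, Immp2l, Magi2, Rbfox1 and Pard3b lie below 0 on both axes, as groups that do not overlap require. The other 27 lie between -0.45 and 0.14 in males and between -0.70 and 0.18 in females.

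The list was then set against all other genes by genomic span, which asks whether long genes outside the list show the same sign. The 336 other tested genes of at least 300 kb had a median log2 fold change of -0.117. Of these, 250 were below 0, 53 had an unadjusted p under 0.05 with a lower level and 5 with a higher level. With a mean of at least 1 CPM, as required of the members, 285 remained, with a median of -0.121 and 17.5% lower at an unadjusted p under 0.05, where 27.3% of the 33 members were. No test was made of the difference between these shares. Only 2 genes of this length were called by edgeR, both outside the list and both lower: Dmd, from 79.0 ± 8.14 to 36.0 ± 12.5 CPM (log2 fold change -1.19, edgeR adjusted p = 0.0249), and Ctnna3, an α-catenin of the intercalated disc, from 21 ± 2.13 to 11.2 ± 2.45 CPM (-0.93, edgeR adjusted p = 0.0247). Counts over all genes turned on single libraries. The 15 genes called by edgeR became 0 when NLC replicate 1, NLC replicate 2, KO replicate 2 or KO replicate 3 was left out, 4 without KO replicate 1 or KO replicate 4, and 50 without NLC replicate 3.

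Across all tested genes the median change was lower in each longer class of span. It was 0.09 for 4089 genes under 10 kb, 0.014 for 4637 genes of 10 to 30 kb, -0.054 for 4021 genes of 30 to 100 kb and -0.102 for 1567 genes of 100 to 300 kb. It was -0.108 for 341 genes of 300 to 1000 kb and -0.194 for 31 genes of at least 1000 kb. Of these 31, 11 had an unadjusted p under 0.05, all lower (6.18% of all genes lower). The 31 include 10 kept members, which account for 5 of the 11. Short genes therefore stood slightly above 0 and long genes below it. The members' median of -0.128 lay between those of the last 2 classes, which contain the members themselves.

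**Figure D4:**
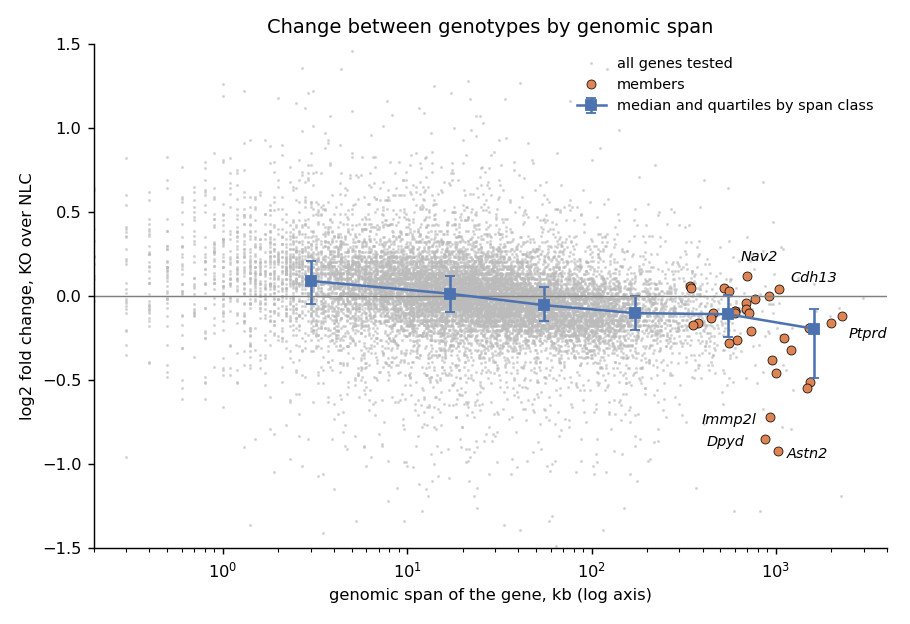
Log2 fold change of KO over NLC against genomic span in kb (log axis) for all tested genes (grey), the 33 kept members (orange) and the median with quartiles of each span class (blue squares). Medians run from 0.09 under 10 kb to -0.194 at 1000 kb or more, the members spread from -0.92 to 0.12 at the right, and 34 genes beyond 1.5 in either direction are not drawn.

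Span goes with other gene properties. Over 14686 annotated genes the Spearman correlation of the log2 fold change was -0.34 with span, -0.28 with exonic length, -0.31 with the longest intron, 0.34 with GC content and 0.02 with mean CPM. Within a narrow range of exonic length the medians still differed by span. For 4 to 8 kb of exon it was 0.013 in genes under 30 kb and -0.101 in genes of at least 100 kb, and for 8 to 16 kb of exon 0.001 and -0.108. Within a range of span the medians also differed by exonic length. In genes of at least 100 kb it was -0.016 for under 2 kb of exon (27 genes) and -0.135 for at least 16 kb. In genes under 30 kb it was 0.117 for under 2 kb of exon and 0.001 for 8 to 16 kb. Medians within a narrow range of GC content were not taken. With a per-library correction for exonic length the median of the 33 members moved from -0.128 to -0.092 and that of all 372 tested genes of at least 300 kb from -0.117 to -0.06. With a correction for GC content they were -0.105 and -0.081, and with 1 surrogate variable as a term -0.084 and -0.062.

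Single libraries show how far this grade follows the genotype labels. Each gene's log2 CPM was centred on its mean over the 8 libraries, and the median over the 33 members was 0.035, 0.095, 0.035 and 0.095 in NLC replicates 1 to 4 and -0.162, -0.119, -0.105 and 0.038 in KO replicates 1 to 4. KO replicate 4, a female, overlapped the controls, and the other KO libraries lay below them. With KO replicate 4 left out, the members' median log2 fold change was -0.204. In those 3 libraries 26, 22 and 27 of the 33 members were under their own mean, against 13 in KO replicate 4 and 6 to 15 in the controls. For the 31 genes of at least 1000 kb, which include 10 kept members, the medians were 0.096, 0.171, 0.14 and 0.257 in NLC and -0.304, -0.212, -0.118 and -0.043 in KO. There the groups did not overlap. For genes of 300 to 1000 kb they did, with -0.058 to 0.123 in NLC and -0.131 to 0.018 in KO.

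**Figure D5:**
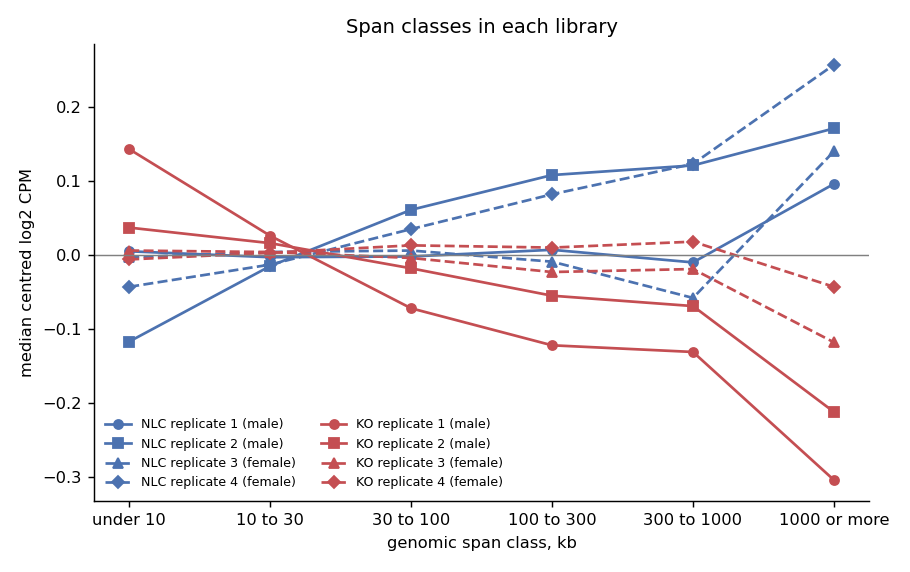
Median centred log2 CPM of the genes in each span class (kb, horizontal) in each of the 8 libraries, with NLC in blue, KO in red, males as solid and females as dashed lines. Curves lie closest together at 10 to 30 kb, spread with span, and separate by genotype in the class of 1000 kb or more, where controls lie at 0.096 or above and KO libraries at -0.043 or below.

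The spread within a genotype was of the same order as the difference between genotypes. The Spearman correlation of centred log2 CPM with span ran from -0.01 to 0.32 in controls and from -0.36 to 0.04 in KO libraries. Its ends were set by NLC replicate 2 (0.32) and KO replicate 1 (-0.36), both male. Without these 2 libraries, an alternative added after the data were seen, the median of the members was -0.083, that of all genes of at least 300 kb -0.062 and that of genes under 10 kb 0.024. The 6 lowest members kept their sign in each of 21 alternative fits. For the fits with libraries left out this follows from groups that do not overlap. Without these 2 libraries Astn2 had a log2 fold change of -1.14, Dpyd -0.67, Immp2l -0.74, Magi2 -0.57, Rbfox1 -0.35 and Pard3b -0.35.

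Genes of the machinery that acts on long transcripts were read from lists chosen for their function. Of 7 topoisomerases and tyrosyl-DNA phosphodiesterases, 0 had an unadjusted p under 0.05 (6.18% of all genes lower and 5.77% higher). The list's median was -0.05 against -0.005 for all genes. Top1, which relaxes the twist around moving polymerase, had a log2 fold change of -0.06. Top2b, the topoisomerase II of cells that no longer divide, had -0.17 (SE 0.0787, unadjusted p = 0.058, edgeR adjusted p = 0.426). Among 31 genes of transcription elongation the median was -0.044 and 0 were called by edgeR (0.102% of all genes). At an unadjusted p under 0.05, 2 were lower, Leo1 (-0.35) and Aff4 (-0.18), which is 6.45% of the list against 6.18% of all genes. Paf1 (0.20) was higher, which is 3.23% of the list against 5.77% of all genes, so both shares were near or under the background. Of 22 splicing and RNA-binding genes 0 had an unadjusted p under 0.05 (6.18% of all genes lower and 5.77% higher), with a median of 0.009. Of 6 nuclear-retained RNAs 0 did (median 0.147). Lists of 6 or 7 genes are too short for a count of 0 to fall clearly under these shares. Malat1, the long noncoding RNA of nuclear speckles, stood at 414 ± 95.3 CPM in NLC and 554 ± 116 CPM in KO (log2 fold change 0.41, SE 0.19, edgeR adjusted p = 0.423).

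Markers of other cell types were summed beside these values. All 7 endothelial markers were below 0 (51% of all genes), with a median of -0.234. At an unadjusted p under 0.05 in edgeR, 4 of them (Pecam1, Kdr, Emcn and Vwf) were lower (6.18% of all genes). The sum of the 7 was 793 to 964 CPM in NLC and 732 to 809 CPM in KO, with none at 0. Cdh13 and Ptprm, members that endothelium also transcribes, had log2 fold changes of 0.04 and -0.04. These 2 are examples not chosen by a rule, and whole-ventricle counts do not show which of the 33 members endothelium transcribes. Fibroblast markers summed to 1070 to 1180 CPM in NLC and 956 to 1230 CPM in KO, pericyte and smooth muscle markers to 1280 to 1390 CPM and 1250 to 1320 CPM, and macrophage markers to 255 to 353 CPM and 240 to 420 CPM. Adipocyte markers ranged from 1.25 to 32.8 CPM in NLC and from 1.35 to 11.9 CPM in KO, erythroid markers from 59.6 to 233 CPM and from 58.8 to 313 CPM, and lymphocyte markers from 1.76 to 3.52 CPM and from 1.4 to 2.49 CPM. Schwann and neural markers, of interest because many members are known from neurons, summed to 9.85 to 20.3 CPM and 11.9 to 14.8 CPM. The part of cell composition in the members' values was not tested.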

How the data were processed

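Raw counts of reads per gene were deposited for each library, made by the authors with STAR and HTSeq on GRCm38 per the submitters' processing notes, which also name DESeq2. For versions, annotation release and strand setting, the entry is: not given in the sources used here. Polyadenylated RNA was sequenced from stranded libraries, per the labels' protocols. The 5 summary entries of each file were left out. Multiply mapped reads were 16.8% to 20.3% of the tallied reads, reads outside genes 3.06% to 4.08% and ambiguous reads 1.26% to 1.38%. GENCODE M21 gave symbols for 55227 of 55487 identifiers, spans and exon sequences; span is the annotated gene from first to last base and includes all transcripts.

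The test was edgeR 4.0.16 under R 4.3.3 (filterByExpr by genotype, TMM, glmQLFit and glmQLFTest with sex as a term; 1 mean per sex and genotype for the sex contrasts), with Benjamini-Hochberg adjustment and a threshold of 0.05. Library values are log2 CPM with a prior count of 2, centred per gene. The fits were tested on simulated counts. Alternatives used DESeq2 1.42.0, limma 3.58.1, sva 3.50.0, other scalings and filters, loess offsets and left-out libraries. Members, role groups and lists were chosen with earlier results of these data known. Every kept member is named; library values were given for the 8 lowest, the 4 highest and the 2 nearest 0. The labels call the samples biological replicates. A level of 3 counts covers counting error only.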

Additional observations from a re-analysis of the deposited data

Results flagged for a closer look

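In 3 of 68 groups of 4 libraries the highest or lowest value stood apart from the other 3 by more than Dixon's 95% limit, where chance alone flags about 1 in 20. Lpp measured 15.76 CPM in KO replicate 1, the deepest library, and 17.44 to 17.71 CPM in the other KO libraries. Sox5 measured 2.63 CPM in NLC replicate 4 and 1.20 to 1.43 CPM in the other controls. That library also held the highest sum of atrial markers, 6000 CPM. Sox5 measured 1.16 CPM in KO replicate 4 and 1.26 to 1.28 CPM in the other KO libraries, a gap of a few reads' worth at this level.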

How the results depend on the processing

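The count of genes called by edgeR, 15, became 30 at a threshold of 0.1, 150 with DESeq2, 621 without a filter on low counts, 36 with 1 surrogate variable, 6 without sex as a term, 0 with the replicate block and 0 without NLC replicate 2 and KO replicate 1 together. Leaving out 1 library gave 0 to 50. Members called were 1 at a threshold of 0.1, 6 with DESeq2, 6 without the filter, and 1 (Immp2l) with a surrogate variable or the exonic length correction. In those last fits 1 member each was higher at an unadjusted p under 0.05, Thsd4 and Nav2. With 1 library left out, the members' median ran from -0.204 (without KO replicate 4) to -0.097 (without KO replicate 3). It was -0.084 with 1 surrogate variable, -0.092 with the exonic length correction and -0.083 without NLC replicate 2 and KO replicate 1 together. Genes called in males were 6, with 314 by DESeq2, 1007 without the filter and 0 to 59 with 1 library left out. In females they were 0, with 17, 277 and 0 to 81, and for the sex difference 0, with 15, 243 and 0 to 8. The female median of the members, -0.06, ran from -0.179 (without KO replicate 4) to 0.023 (without KO replicate 3). The cause of these shifts was not tested.

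Signs turned in 10 members, with values from -0.17 (Fbxl7) to 0.05 (Nfia) in the fit reported first. With 1 library left out, the values ran from -0.19 to 0.24 in Thsd4, -0.02 to 0.03 in Wwox, -0.13 to 0.07 in Zbtb20, -0.17 to 0.00 in Ptprg, -0.01 to 0.07 in Cdh13, -0.04 to 0.12 in Nfia and -0.27 to 0.01 in Fbxl7. With the exonic length correction Zbtb20 had 0.10, Lpp and Mast4 0.03 and Ptprm 0.02. With the GC correction Zbtb20 had 0.05 and Thsd4 0.00, and with limma voom Wwox had 0.00. Without NLC replicate 2 and KO replicate 1, Ptprg and Zbtb20 had 0.03. Replicate numbers did not pair the samples: same-numbered libraries had correlations of 0.246, 0.094, -0.208 and 0.087, and not every library was closest to its own number. RLE and upper quartile scaling changed no call of a member.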
